A study of Drosophila melanogaster with 23 samples.

Results

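Broad gene promoters of the *Drosophila melanogaster* embryo were taken here as transcription start site clusters (TSCs) that the authors assigned to an annotated gene, that spanned at least 200 bp and that carried a score of at least 500. A TSC is a group of neighbouring start sites treated as 1 promoter. The rule selected 1116 of 24735 TSCs, in 1013 genes. Embryos of the strain y; cn bw sp, kept in population cages, had been collected in 23 windows of 1 h after egg laying, from 0-1 h to 22-23 h, for replicate 2 of a developmental series. Whole embryos were used, so each value averages all cell types, and fewer cells of a type and less RNA per cell cannot be told apart. Each window gave 1 library, so no window has a replicate. Tests of change over time measure the scatter of single libraries around a time curve. The contrast of late with early windows measures their scatter around the mean of each phase, change within a phase included. All 23 were barcoded during reverse transcription and carried through the later steps in 1 pool. RAMPAGE, the assay, reads the 5′ ends of capped transcripts. Levels are in RPM, the reads of a TSC scaled to a common total of TSC reads per library.

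The shallowest library, 5-6 h, had 286206 reads and the deepest, 1-2 h, had 14705005 (median 2664024). The windows 0-1 h and 1-2 h held 27.4% of all reads, and the score, which broadly followed the reads summed over the series, leans toward them. Score and reads were not equivalent: reads per unit of score ran from 1.04 to 3.20 among broad TSCs, with a median of 1.11. Stage markers peaked in the labelled order: the maternal determinants bcd, osk, pgc and gcl at 0-1 h or 1-2 h, the blastoderm genes nullo, bnk, slam and eve at 2-3 h, the neuronal gene elav at 9-10 h and the cuticle gene Cpr47Eg at 21-22 h. A few early libraries carried more reads of late genes than their neighbours. The share of reads in broad TSCs of cuticle genes was 0.0607% in the 7-8 h library and 0.0614% in the 8-9 h library, against 0.00218% one window earlier and 0.0158% one window later. The source of these reads was not tested.

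Fly promoters are commonly described as peaked or dispersed. In a peaked promoter RNA polymerase II starts at a few adjacent bases, often beside a TATA box or Initiator, and such promoters are known from genes with tight stage or tissue control. In a dispersed promoter starts are scattered over a longer stretch, a form known from genes that most cells use. For comparison, gene TSCs of the same minimum score were divided into an intermediate class from 50 bp to under 200 bp (6136 TSCs) and a narrow class under 50 bp (1201 TSCs).

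The broad TSCs were selected on width and score, which are therefore given as a description. Widths of broad TSCs ran from 200 to 1548 bp with a median of 281 bp, and scores from 501 to 659872. At exactly 200 bp there were 7 of them, and 8 gene TSCs of sufficient score were 1 bp too short. On the other limit, the lowest score inside was 501, the highest outside was 499, and 461 gene TSCs of at least 200 bp fell under it. The widest was a promoter of Rox8, which encodes an RNA-binding protein, at chr3R:19872648-19874195 on the minus strand (release 5, dm3, as for all positions). Next came SkpA, a subunit of SCF ubiquitin ligases, with 1049 bp at chrX:549819-550867, and TpnC47D, a calcium-binding troponin C of muscle, with 877 bp at chr2R:7162242-7163118. A TSC of lolal, which encodes a BTB-domain protein, spanned 855 bp, and one of the gene FBgn0001219 spanned 815 bp. Among the broad TSCs the Spearman correlation of width and score was -0.07 (1116 TSCs, which share libraries and caller). Over all 8453 gene TSCs of that score it was 0.35. The rule set a minimum for both values, which narrows their range, so the first value is not read as a trait of broad promoters.

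Broad TSCs stood out by their place within genes. Every TSC was ranked within its gene by score, the first being called leading and the others secondary. Of the 1116 broad TSCs 395 (35.4%) were secondary, compared with 11.1% of the intermediate and 23.4% of the narrow class. At scores of 500 to under 2000 only 149 of 440 broad TSCs (33.9%) led their gene, compared with 82.6% of intermediate and 72.4% of narrow TSCs. At scores of 10000 and over the classes were alike, with 96.6% of broad, 97.5% of intermediate and 96.4% of narrow TSCs leading. Rank within a gene and the bands both rest on the score, so leading at a high score is partly built in. It was common to every class. The classes differed at low scores, where a broad TSC was mostly an additional cluster. Secondary broad TSCs carried a median of 10.3% of their gene's summed score.

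The secondary broad TSCs mostly lay downstream of the leading one. This was so for 357 of 395 (90.4%), compared with 61.0% of 679 intermediate and 72.2% of 281 narrow secondary TSCs. The broad share was lower at higher scores: 274 of 292 (93.8%) under 2000, 77 of 92 (83.7%) from there to under 10000 and 6 of 11 (54.5%) above. In the intermediate class these shares were 64.1%, 52.3% and 70.4%. Distances downstream had a median of 4100 bp, with quartiles of 2020 and 9200 bp, against medians of 2552 bp for intermediate and 1439 bp for narrow TSCs. Only 27 broad TSCs (6.84%) lay within 1 kb downstream, a zone that held 18.4% of intermediate and 31.3% of narrow secondary TSCs. Whether these clusters fall on exons, introns or UTRs was not analysed here, since the annotation at hand is of a later genome release.

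**Figure D1:**
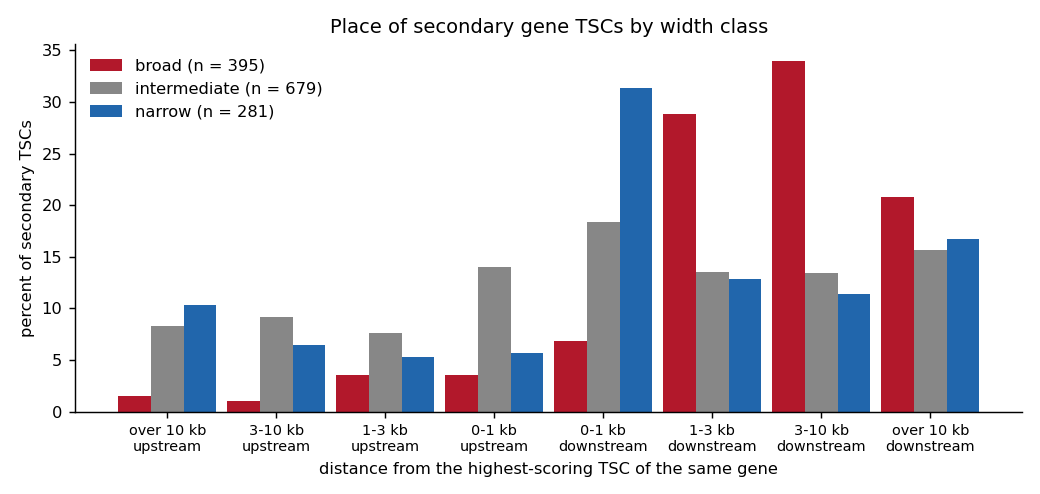
Percent of secondary TSCs (y axis) by distance from the highest-scoring TSC of the same gene (x axis, 8 bins from upstream to downstream) for the broad (red), intermediate (grey) and narrow (blue) classes. Broad TSCs are concentrated 1 to 10 kb downstream, with 28.9% at 1-3 kb and 33.9% at 3-10 kb.

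Timing was not part of the rule, so it could be asked whether a broad TSC and its partner kept the same ratio through embryogenesis. In genes with 2 or more TSCs of score 500 or more, the reads of the 2 highest-scoring TSCs were compared by a quasi-binomial model on a spline of time. Over all 961 genes the ratio changed in 702 (73%, adjusted p under 0.05). Where the second TSC was broad and the leading one was not, it changed in 75 of 222 genes (33.8%), well under that share. Where the leading TSC was broad and the second was not, it changed in 97 of 123 (78.9%), and where neither was broad in 515 of 579 (88.9%). With both TSCs broad the count was 15 of 37 (40.5%).

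Position within the gene divided these pairs further. A second TSC that was broad and downstream changed its ratio in 53 genes (26.6% of such pairs), whereas one that was broad and upstream did so in 22 of 23 (95.7%). Among pairs without a broad TSC the counts were 297 of 353 (84.1%) downstream and 218 of 226 (96.5%) upstream. The difference between the classes was present at equal score: with a second TSC of 500 to under 2000 the counts were 46 of 164 (28.0%) with a broad second TSC and 344 of 398 (86.4%) without a broad TSC. At 2000 and over they were 29 of 58 (50.0%) and 171 of 181 (94.5%). It was also present for minor partners: where the second TSC gave under 20% of the pair's score, 44 of 131 (33.6%) and 208 of 247 (84.2%) changed. A ratio that misses the threshold is not shown to be constant, and these counts over genes are a description with no test between the classes.

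**Figure D2:**
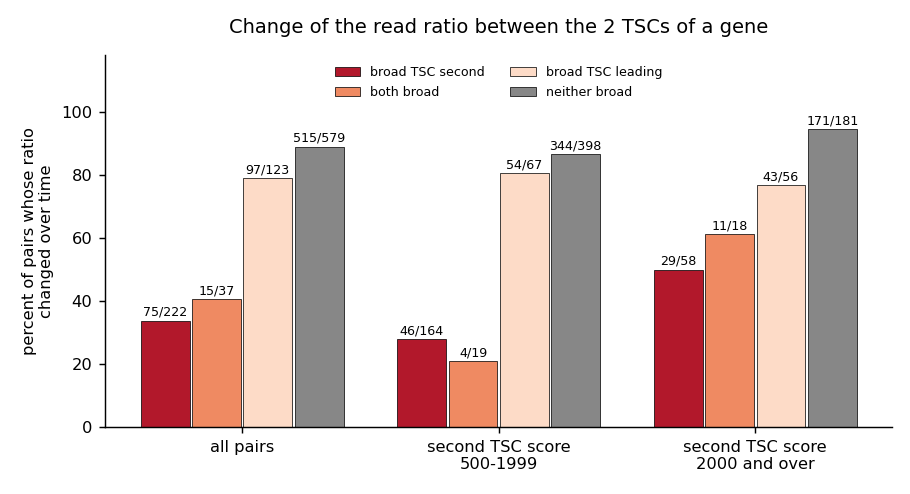
Percent of gene pairs whose read ratio changed over the 23 windows (y axis, adjusted p under 0.05), for pairs with a broad second TSC, 2 broad TSCs, a broad leading TSC or none, over all pairs and by the score of the second TSC. Numbers above bars give called over tested pairs, and the bars for a broad second TSC are at 33.8%, 28.0% and 50.0%.

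Some broad promoters did exchange places with another promoter, and the strongest case was Actn. This gene encodes alpha-actinin, which crosslinks actin filaments in the Z-disc of muscle. Its broad TSC (235 bp, chrX:1930470-1930704, minus strand) lay 5681 bp downstream of a TSC of 159 bp. The broad TSC held from 0.339% of the pair's reads (1-2 h, 29 of 8544 reads) to 97.1% (21-22 h, 849 of 874), with a median of 74.0%. The change was gradual, with 12.3% at 8-9 h, 48.7% at 10-11 h and 87.9% at 13-14 h, and the late windows did not overlap the early ones (adjusted p = 3.04e-24). Both TSCs moved: the broad one had a median of 847 RPM at 16-23 h, against 3.32 RPM at 0-8 h, while the other peaked at 579 RPM at 1-2 h.

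In the other 3 genes with the smallest adjusted p the share of the broad promoter was lower late. For mld, a zinc-finger gene known from ecdysone production, the broad TSC (273 bp) lay 3717 bp upstream of a narrow TSC of 39 bp. At 0-1 h it held 99.1% of the pair's reads, at 3-4 h it held 76.1% and at 5-6 h it held 17.6%. The median was 12.7% and the lowest value 2.70%, at 21-22 h (1 of 37 reads; adjusted p = 7.37e-17). After 4 h no share was above 33.3%. RhoGEF3 used its broad TSC for 93.0% or more of the reads up to 10-11 h and for 8.10% at 18-19 h (adjusted p = 1.55e-16). Its partner, 63 bp wide and 9813 bp upstream, had 0 reads at 0-1 h and peaked at 115 RPM at 17-18 h. In the gene FBgn0034155 the share of the broad TSC lay between 50.7% (20-21 h) and 100% (3-4 h), with a median of 93.0% (adjusted p = 2.09e-17). Here the broad TSC itself was higher late, with a median of 213 RPM at 16-23 h, against 87.7 RPM at 0-8 h, and the narrow downstream TSC of 49 bp was added to it.

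**Figure D3:**
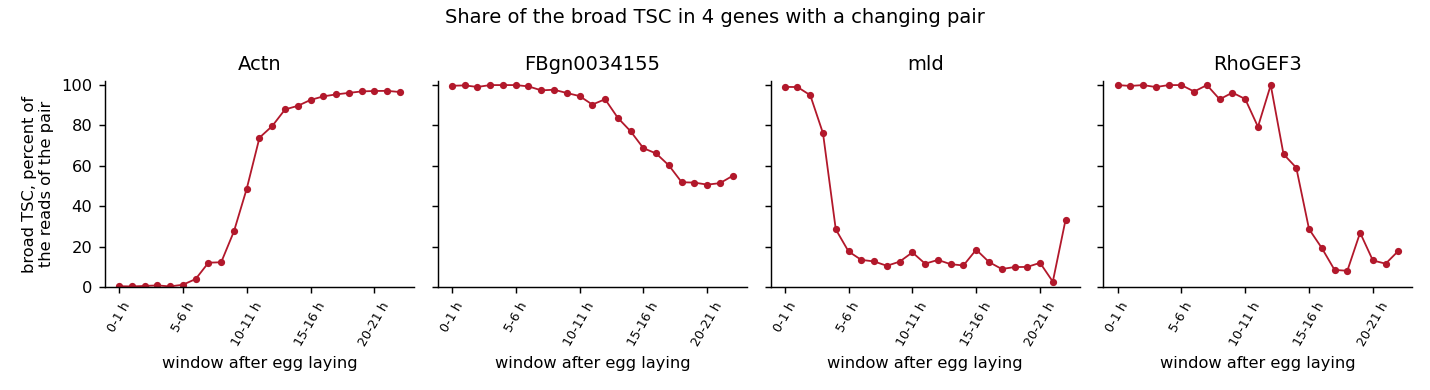
Share of the broad TSC in the reads of the pair (y axis, percent) in each of the 23 windows (x axis) for Actn, FBgn0034155, mld and RhoGEF3; each point is 1 library. Actn climbs to 97.1% at 21-22 h, while mld drops between 2-3 h and 5-6 h and RhoGEF3 after 12-13 h.

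Of the named broad TSCs downstream of a leading one, 7 were tested as the second TSC of a pair, and the ratio changed in 4. Rpn1 and Rpn2, subunits of the proteasome's regulatory particle, had broad TSCs 2443 and 2791 bp downstream of intermediate leading TSCs. The Rpn1 cluster held 0% to 37.0% of the pair's reads (median 14.2%), and no change over time passed the test (adjusted p = 0.508). The Rpn2 cluster held a median of 50% with a range of 30.8% to 100%, the highest value resting on 1 read at 21-22 h (adjusted p = 0.666). Hrb27C, encoding an hnRNP protein, had a broad TSC of 809 bp lying 5571 bp downstream, with 0.753% to 7.61% of the pair's reads and an adjusted p of 0.35. In 14-3-3zeta, whose product binds phosphorylated proteins, the broad downstream TSC held 0.767% at 1-2 h and 17.9% at 19-20 h (adjusted p = 1.88e-13). Hsp83, the fly Hsp90 chaperone, had a broad TSC 3075 bp downstream with at most 16.9% of the reads at 3-4 h (adjusted p = 0.00661). The broad TSC of lolal, 1262 bp downstream of another broad one, held 4.24% to 14.8% of the reads (adjusted p = 6.82e-08), and that of CG3662 held 6.90% to 47.9% (adjusted p = 0.0217). HmgZ, which encodes an HMG-box chromatin protein, had 2 broad TSCs of 540 and 372 bp. The upstream one, of 372 bp, held from 23.4% of their reads at 4-5 h to 59.0% at 20-21 h (adjusted p = 5.59e-10).

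The breadth of expression in time was described with the study's own definitions. A TSC was housekeeping if its highest value was at least 10 RPM and under 5 times its lowest, and regulated if 60% or more of its summed RPM fell in 8 consecutive windows. Of the 1115 broad TSCs with a usable profile, 123 (11.0%) were housekeeping, 461 (41.3%) regulated and 531 (47.6%) neither. Under TMM 194 were housekeeping. The intermediate class was similar, with 12.5% housekeeping and 35.1% regulated, and the narrow class was not, with 1.08% and 75.5%. Over all 12222 TSCs that reached 10 RPM the shares were 7.37% and 53.0%. Broad promoters were thus mostly not housekeeping under this limit, and the share went with score. It was 1.59% at scores under 2000, 8.93% from there to under 10000 and 25.9% at 10000 and over. In the intermediate class these shares were 4.85%, 15.7% and 23.7%. Leading broad TSCs were housekeeping in 15.7% and secondary ones in 2.54% of cases, with median scores of 7572 and 1012, and the part of read number in this difference was not tested.

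Shannon entropy of the RPM profile, with a maximum of 4.52 bits for even use of all windows, gave the same order. Its median was 4.19 bits in broad TSCs (quartiles 3.94 and 4.34), 4.24 bits in intermediate and 3.69 bits in narrow ones. In the highest score band the medians were 4.32, 4.33 and 3.22 bits, so broad and intermediate promoters differed by 0.01 bits where reads were most plentiful.

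Nearly all promoters varied with time, broad ones no more than others. A spline of time fitted with limma on log2(RPM + 1) called 93.1% of the 9428 TSCs tested, and 1024 of 1102 broad TSCs (92.9%). A mean of at least 5 RPM was required, which 13 of the 1115 broad TSCs missed. The fitted range, the highest minus the lowest fitted log2 value, had a median of 2.76 in broad TSCs and 2.94 in all. Called broad TSCs had their fitted maximum at 0-8 h in 645 cases (63.0%), at 8-16 h in 216 (21.1%) and at 16-23 h in 163 (15.9%). Over all TSCs called the shares were 54.6%, 25.1% and 20.3%, and in the intermediate class, which was close to the broad one, 62.7%, 23.3% and 14.0%. Narrow TSCs were placed the other way round, with 22.9%, 31.6% and 45.5%. Under TMM scaling, which sets library factors by the bulk of TSCs, the late share was 27.5% in broad, 27.4% in intermediate and 55.8% in narrow TSCs, and 33.0% in all.

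Between 16-23 h and 0-8 h, 209 of 1102 broad TSCs (19.0%) were higher late and 641 (58.2%) lower, while over all TSCs 24.7% were higher and 50.1% lower. That split depended on the scaling. The median change of all TSCs was -0.80 on the log2 scale and that of broad TSCs -1.05, and under TMM the medians were -0.06 and -0.29. Under TMM 300 broad TSCs (27.2%) were higher and 376 (34.1%) lower, beside 32.6% and 30.2% of all TSCs. Under both scalings the median broad TSC lay below the median of all TSCs, which include TSCs of lower score and without a gene. The contrast was not summarised for the intermediate class. Its early share of fitted maxima (62.7%) was close to that of broad TSCs (63.0%), so the difference from all TSCs is not read as particular to broad ones.

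The broad promoters with the largest ranges differed in when they were used. Among those with an early maximum, CG4440 (218 bp, chr2L:16329773-16329990) ranged from 0 reads at 21-22 h through a median of 87.2 RPM to 3945 RPM at 5-6 h, with a fitted range of 9.96 ± 0.47 (SE; adjusted p = 2.62e-14). CG15480 had the same shape with a maximum of 2271 RPM at 5-6 h. These 2 peaks rest on the shallowest library, with 1129 and 650 reads, and neighbouring windows were of the same order. The gene halo, known for directing lipid droplet transport in the early embryo, reached 4678 RPM at 2-3 h (5967 reads) and had a median of 6.91 RPM. BicC, a maternal RNA-binding regulator of translation, was at 482 RPM at 0-1 h (3980 reads) and had a median of 2.54 RPM, 4 libraries being at 0. The high values of halo spanned 0-1 h to 5-6 h, and those of BicC were confined to 0-1 h and 1-2 h.

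With a fitted maximum at 8-16 h, the 4 largest ranges were those of TwdlF, Gasp, CG14756 and CG10591. TwdlF, of the Tweedle cuticle family, ranged from 3.49 RPM at 5-6 h to 23185 RPM at 15-16 h, with a median of 57.3 RPM and a fitted range of 9.79 ± 1.06 (adjusted p = 1.06e-07). Gasp, a chitin-binding protein of the tracheal lumen, ranged from 19.1 RPM at 1-2 h to 38630 RPM at 15-16 h, with a median of 1324 RPM, and was still at 34101 RPM at 16-17 h. CG14756 reached 17467 RPM at 11-12 h and CG10591 reached 3273 RPM at 12-13 h. All 4 had lower values on both sides of their peak. Their TSCs measured 244, 255, 393 and 222 bp.

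With a late fitted maximum, the largest ranges were those of Cpr47Eg, Zasp66, Cpr65Ea and CG10953. Cpr47Eg, a chitin-binding cuticle protein, had a TSC of 473 bp (chr2R:7165724-7166196, minus strand) that ranged from 3.81 RPM at 4-5 h through a median of 267 RPM to 50339 RPM at 21-22 h. Its fitted range of 11.01 ± 1.52 (adjusted p = 1.8e-09) was the largest among the called broad TSCs. Zasp66, a Z-disc protein, reached 4179 RPM at 22-23 h, and CG10953 reached 7527 RPM at 21-22 h. Cpr65Ea was earlier, with 18599 RPM at 16-17 h and a median of 81.2 RPM, and it was at 67.7 RPM again by 21-22 h. These 2 cuticle genes thus peaked in different windows.

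**Figure D4:**
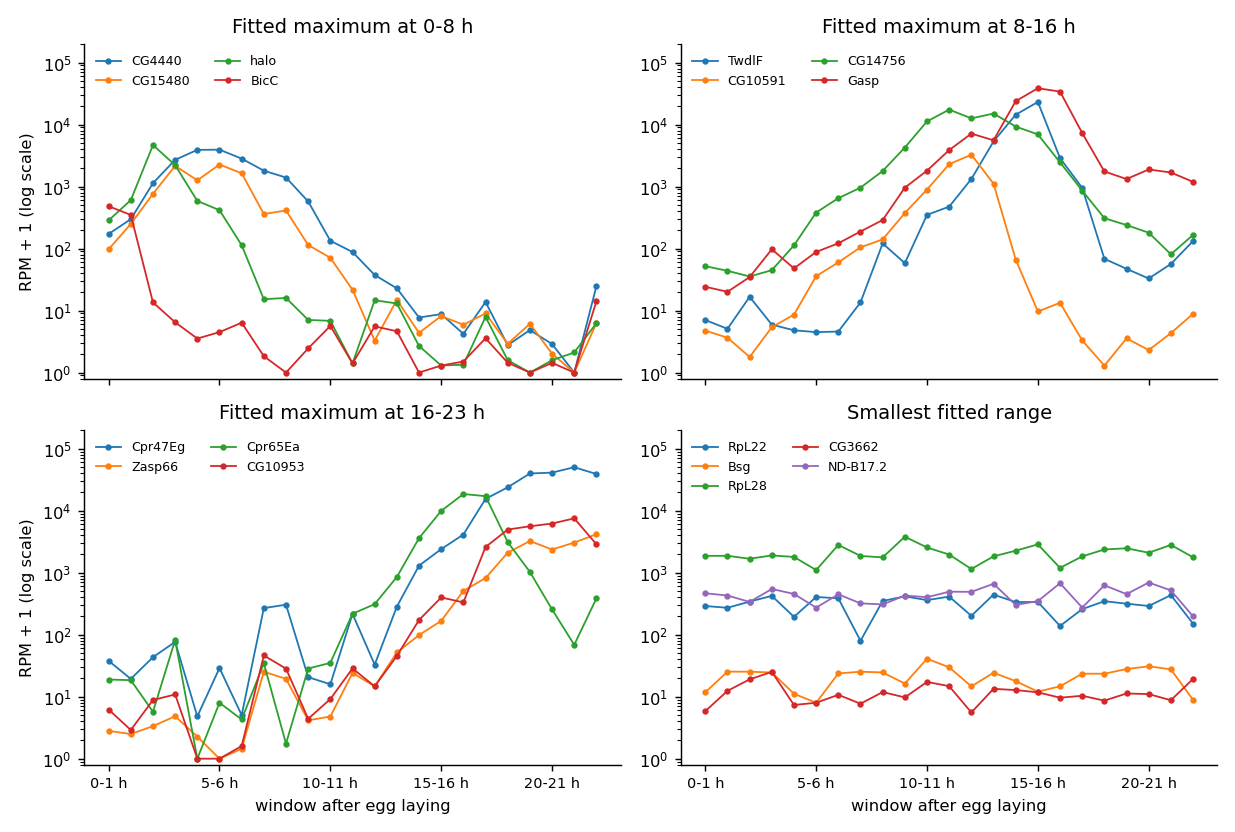
RPM + 1 on a log axis against window for broad TSCs named by the size of their fitted range; each point is 1 library. The early, middle and late sets span several orders of magnitude, up to 50339 RPM for Cpr47Eg, whereas the 5 TSCs with the smallest fitted range differ between their highest and lowest window by 3.45 to 5.71 times.

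The 5 broad promoters with the smallest fitted range were RpL22, Bsg, RpL28, CG3662 and ND-B17.2. RpL28, a protein of the large ribosomal subunit, lay between 1104 RPM (5-6 h) and 3810 RPM (9-10 h) with a median of 1874 RPM (range 0.42 ± 0.43, adjusted p = 0.861). ND-B17.2, a subunit of respiratory complex I, lay between 197 and 694 RPM with a median of 447 RPM (adjusted p = 0.654). RpL22 had a median of 337 RPM and its lowest value, 78.7 RPM, at 7-8 h (94 reads, adjusted p = 0.95). It was also low at 16-17 h (137 RPM, 811 reads) and at 22-23 h (150 RPM, 57 reads). The TSCs of Bsg, which encodes the cell-surface glycoprotein basigin, and CG3662 were secondary and weak, with medians of 22.7 and 10.0 RPM, and their lowest windows rested on 2 reads each. RpL28 and ND-B17.2 were housekeeping by the limit above, and RpL22, Bsg and CG3662 were not. A missed threshold does not show a level profile. Under TMM, RpL28 (adjusted p = 0.00975) and ND-B17.2 (adjusted p = 0.00753) changed, both with their fitted maximum late. In the contrast of 16-23 h with 0-8 h under TMM, Bsg (log2 change 1.00, adjusted p = 0.0165) and CG3662 (0.76, adjusted p = 0.0409) were higher late.

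Gene groups were read from lists of symbols, so TSCs of genes without a symbol could enter none. A symbol was found for 1063 of the 1116 broad TSCs. Of all 8453 gene TSCs 13.2% were broad and 14.2% narrow. Broad TSCs made up 17 of 43 (39.5%) TSCs of actin, tubulin and cytoskeleton genes, 13 of 36 (36.1%) of small GTPase and membrane traffic genes, 8 of 25 (32.0%) of muscle sarcomere genes, 18 of 63 (28.6%) of chromatin and insulator genes and 16 of 57 (28.1%) of translation factor genes. Many of these were secondary TSCs. Only 7 of the 17 cytoskeleton and 4 of the 13 membrane traffic TSCs led their gene, each set coming from 10 genes. In sarcomere genes 5 of 8 led, in chromatin genes 7 of 17 with a profile and in translation factor genes 9 of 16. Cytoplasmic ribosomal protein genes had 23 of 98 (23.5%), of which 19 led their gene. For the respiratory chain (8 of 64, 12.5%), the proteasome (5 of 38, 13.2%), patterning regulators (6 of 43, 14.0%) and cuticle proteins (10 of 78, 12.8%) the broad share was near that of all gene TSCs. Patterning and cuticle genes were rich in narrow TSCs, with 17 (39.5%) and 37 (47.4%).

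Among ribosomal protein genes RpL23, of the large subunit, had a broad TSC of 326 bp at chr2R:18741845-18742170 and lay between 1057 and 2433 RPM (median 1904 RPM). Of the 23 broad TSCs 10 were called, beside 93.1% of all TSCs, and 10 were housekeeping, beside 11.0% of all broad TSCs. Their median fitted range was 0.90, with 2.74 in RpS15Ab and 2.31 in RpL4. All 10 called ones had their maximum at 0-8 h, but under TMM 5 were called, 1 with an early and 4 with a late maximum, so their direction depends on the scaling. RpL23, called with an adjusted p of 0.0178, was not called under TMM (adjusted p = 0.14). Several ribosomal, actin and cuticle genes have near-identical copies, and how the authors counted reads that match several places is not given in the sources used here.

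Of the 8 broad TSCs of respiratory chain genes 4 were called, beside 93.1% of all TSCs. Of the 4, 1 had an early and 3 a late maximum, beside 54.6% and 20.3% of all TSCs called. ATPsynE, a subunit of ATP synthase, lay between 1863 RPM at 9-10 h and 4680 RPM at 2-3 h (median 3092 RPM, range 0.70 ± 0.26, adjusted p = 0.0147). COX6B, of cytochrome c oxidase, lay between 576 RPM at 7-8 h and 4752 RPM at 22-23 h (adjusted p = 0.0364), and COX5A did not pass the test (adjusted p = 0.163). The call of COX6B was lost without a filter (adjusted p = 0.0577), with 5 degrees of freedom (adjusted p = 0.0921) and with libraries thinned to the shallowest (adjusted p = 0.0556). Under TMM all 8 were called with a late maximum, ATPsynE included, whose fitted maximum without TMM was at 0-1 h. Over all TSCs 7930 of 9428 were called under TMM, 33.0% of them with a late maximum. Among translation factors 13 of 16 were called, beside 93.1% of all TSCs. An early maximum was found in 8 of the 13, beside 54.6% of all TSCs called. Under TMM 9 were called, 7 of them with an early maximum, beside 48.2% of all TSCs called. The cap-binding protein eIF4E1 had its maximum of 1584 RPM at 1-2 h and a minimum of 251 RPM at 21-22 h, whereas eIF4G1 varied only between 357 and 903 RPM.

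Several lists of nuclear and protein turnover genes had mostly early maxima. Over all TSCs 93.1% were called, and 54.6% of these had an early maximum (48.2% under TMM). All 17 tested TSCs of chromatin and insulator genes were called with an early maximum, as were 10 of 11 in cell cycle and replication, all 5 of the proteasome and 7 of 9 in RNA splicing and binding. Under TMM the early counts were 15, 10, 5 and 7. Most of these TSCs were secondary, and some genes gave several. In cell cycle and replication 3 of 11 led their gene (8 genes). Of the proteasome TSCs 1 of 5 led, and in RNA splicing and binding 3 of 9 (6 genes). The zld promoter, of the factor that opens the zygotic genome, lay at 61.5 to 204 RPM at 16-23 h, against 326 to 920 RPM at 0-8 h, without overlap (log2 change -2.12 ± 0.27, adjusted p = 1.64e-07; -1.31 under TMM). Dp, the partner of E2F, lay at 86.7 to 165 RPM at 16-23 h, against 535 to 949 RPM at 0-8 h (log2 change -2.43 ± 0.22, adjusted p = 1.13e-09; -1.62 under TMM). CycE, the cyclin of S phase entry, had a secondary broad TSC that peaked at 135 RPM at 0-1 h and had 0 reads at 22-23 h. Twine (twe), a Cdc25 phosphatase of meiosis and the early cycles, reached 627 RPM at 2-3 h and had a median of 126 RPM.

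Of the 3 broad TSCs of factors that themselves act at core promoters, 2 had an early and 1 a mid-embryonic maximum. Dref, which binds the DRE element of many constitutive fly promoters, had a broad TSC of 279 bp at chr2L:9967011-9967289, with 160 to 819 RPM at 16-23 h, against 750 to 3550 RPM at 0-8 h (log2 change -2.11 ± 0.39, adjusted p = 3.53e-05; -1.29 under TMM). The ranges overlapped only between 750 and 819 RPM. TfIIA-S, a subunit of TFIIA, lay at 73.2 to 527 RPM at 16-23 h, against 762 to 2866 RPM at 0-8 h (log2 change -2.25 ± 0.36, adjusted p = 4.63e-06; -1.43 under TMM). A broad TSC of Trf2, which encodes a TBP-related factor, was secondary, 809 bp downstream of the leading one, and lay between 8.71 RPM at 0-1 h and 129 RPM at 10-11 h.

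Sarcomere and cuticle genes held part of the 163 late broad TSCs. All 8 broad TSCs of sarcomere genes were called with a late maximum, also under TMM, beside late shares of 20.3% and 33.0% (TMM) over all TSCs called, with a median fitted range of 7.23. TpnC73F, a troponin C, lay at 4751 to 10832 RPM at 16-23 h, against 3.81 to 155 RPM at 0-8 h (log2 change 8.05 ± 0.69, adjusted p = 1.03e-09; 8.85 under TMM). Mlp60A, a muscle LIM protein, had a TSC of exactly 200 bp and lay at 1960 to 3301 RPM at 16-23 h, against 2.54 to 37.7 RPM at 0-8 h. In both genes no late window overlapped an early one. Of the 10 cuticle TSCs 8 had a late and 2 a mid-embryonic maximum, with a median range of 9.20, and all 10 were regulated. Cytoskeletal genes were divided: Act57B, a muscle actin, lay at 3515 to 7157 RPM at 16-23 h, against 5.08 to 161 RPM at 0-8 h, whereas chic, encoding profilin, lay at 126 to 501 RPM at 16-23 h, against 854 to 2265 RPM at 0-8 h (log2 change -1.45 under TMM). Tm2, a tropomyosin, was at least 698 RPM at 16-23 h, against at most 8.38 RPM at 0-8 h.

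Broad promoters of patterning and signalling genes varied in their course. The anterior determinant bcd had its maximum of 512 RPM at 1-2 h and the caudal homeobox gene cad its maximum of 440 RPM in the same library. Mef2, a regulator of muscle differentiation, had 3 broad TSCs, of which the leading one (386 bp) ranged from 7.38 RPM at 0-1 h to 699 RPM at 8-9 h with a median of 125 RPM. Ras85D, the fly Ras, lay between 211 and 1050 RPM and was housekeeping, and Rab8, of membrane traffic, lay between 152 and 1030 RPM with its maximum at 1-2 h. Of the TSCs that the heat shock list matched by symbol, 3 secondary ones in Hsp83 and the ER chaperone gene Hsc70-3 were broad, while 9 of 19 were narrow. Genes without a symbol here, FBgn0001219 among them, could not be matched, so broad leading TSCs of heat shock genes may be missed.

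Together the broad TSCs took a changing part of each library. It stayed between 20.7% and 23.4% of the reads from 0-1 h to 13-14 h, was 24.7% at 14-15 h and 30.3% at 15-16 h, and peaked with 40.4% at 17-18 h (95% Wilson interval 40.3% to 40.4%, counting error only). It was still 35.3% at 21-22 h and 27.0% at 22-23 h. Without the 10 broad TSCs with the highest scores the share was 24.9% at 15-16 h, the highest of the series, 23.9% at 16-17 h, 22.1% at 17-18 h and 15.5% at 21-22 h, against 18.8% at 0-1 h and 20.4% at 13-14 h. CG30457 alone, with a TSC of 322 bp at chr2R:13048229-13048550 and the highest score of all, gave 10.1% of the reads at 21-22 h and 5.26% at 17-18 h, against 0.00978% at 0-1 h. At 17-18 h CG31626 gave 3.32%, CG15212 gave 2.75% and Cpr78Cc gave 2.36%. Cuticle gene TSCs took 7.88% at 21-22 h and sarcomere gene TSCs 2.01%, against 0.0107% and 0.00445% at 0-1 h.

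The median level of a broad TSC depended on the scaling. It was 20.9 to 26.1 RPM at 16-23 h, against 29.2 to 39.0 RPM at 0-8 h, without overlap. Under TMM, an alternative chosen after seeing the data for this value, it was 27.9 to 36.3 at 16-23 h, against 22.8 to 33.6 at 0-8 h, so the direction turned and the ranges overlapped. Secondary broad TSCs together held between 0.798% (0-1 h) and 1.48% (10-11 h) of the reads.

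**Figure D5:**
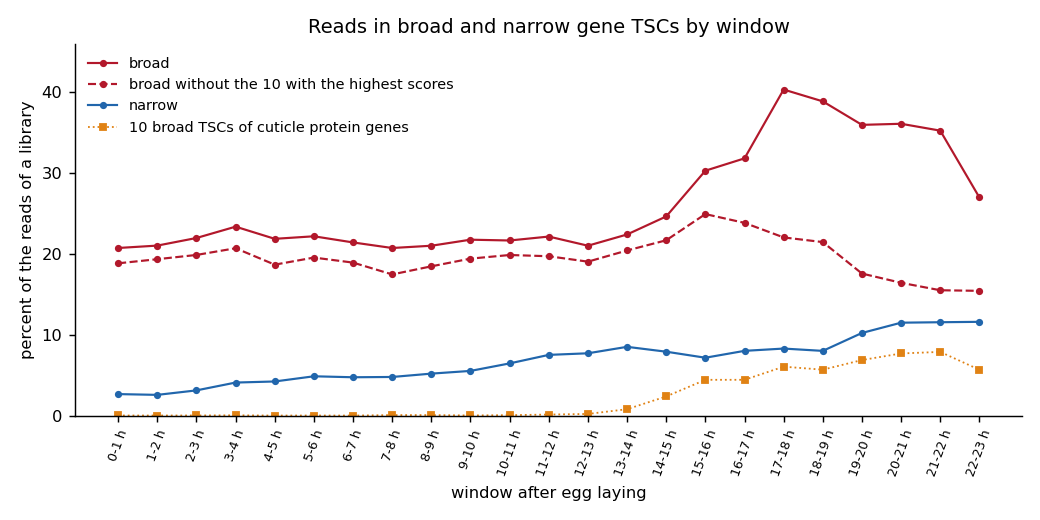
Percent of the reads of each library (y axis) in broad gene TSCs, in broad TSCs without the 10 highest-scoring ones, in narrow gene TSCs and in the 10 broad TSCs of cuticle protein genes, by window (x axis); each point is 1 library. Broad TSCs reach 40.4% at 17-18 h, but 22.1% without the 10.

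Other properties were not part of the rule. Gene IDs matched a protein-coding gene for 1054 of the 1116 broad TSCs (94.4%), a share like the 94.5% of intermediate and 93.3% of narrow TSCs. Chromosome 4 had 17 broad and 2 narrow TSCs of 95, the X chromosome had 211 broad of 1437 (14.7%), and the arms of chromosomes 2 and 3 had 12.4% to 13.6% broad. On heterochromatic or unplaced sequences 15 of 51 (29.4%) were broad. The start of a TSC on the opposite strand lay within 500 bp upstream of 28.0% of broad TSCs, compared with 41.3% of intermediate and 13.2% of narrow ones. The gap between broad and intermediate was widest at scores under 2000, with 17.7% and 39.9%. From there to under 10000 the shares were 34.0% and 43.4%, and at 10000 and over 35.4% and 39.7%. Narrow TSCs had 13.9%, 10.3% and 18.2% in these bands. TSCs of any score, with or without a gene, were counted as such neighbours. An overlap with a TSC on the opposite strand was more frequent in the broad class, with 16.4% compared with 7.55% and 1.00%, the classes differing in length by their definition. Most genes with a broad TSC had 1 (927 genes), while 72 had 2, 11 had 3 and 3 had 4. The 3 were chic, the type IV collagen gene vkg and FBgn0005630.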

How the data were processed

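RAMPAGE reads of 23 libraries had been mapped by the authors with STAR (version not given in the sources used here) to FlyBase release 5.49 (dm3), and TSCs called on data pooled over the series. The deposited TSC table gives RPM per library; all values were whole multiples of 1 read (tolerance 0.001), so reads were recovered exactly. The deposited BED file gives other values, namely positions, width and a score of unstated meaning. Recovered reads were 1.11 times the score in the median member, with a range of 1.04 to 3.20. The deposited gene table (RPM) served for stage markers only, and the table of aligned gene profiles was not used. TSCs were grouped by deposited width and score. There were 5 TSC names on 2 BED lines each; 1 of them is a broad TSC, counted but left out of profiles. Gene symbols and biotypes came from gene IDs (Ensembl 115 and the name table), which gave 1063 of 1116 broad TSCs a symbol; the rest are named by ID. No positions of the later release were used, and no genome or promoter sequence of release 5 was at hand, so the planned motif shares were not computed and no sequences are shown.

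For time dependence limma 3.58.1 (trend, robust; R 4.3.3) was fitted to log2(RPM + 1) as a natural spline of the window midpoint with 4 degrees of freedom, for TSCs with a mean of at least 5 RPM, and the phase contrast with 3 phases. A fold change on this scale understates low promoters. Windows of a phase are not replicates, so change within a phase counts as error. Promoter choice used a quasi-binomial model on the same spline. All p-values were adjusted (Benjamini-Hochberg) over all features tested, with a threshold of 0.05. Scripts were tested on simulated data. edgeR 4.0.16 and DESeq2 1.42.0 on recovered reads served as alternatives. A count of 0 allows up to 3 reads, 10.5 RPM at 5-6 h and 0.204 RPM at 1-2 h; intervals and limits cover counting error only. How PCR duplicates were treated is not given in the sources used here.

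The members, lists and tests were chosen with earlier results of these data known. Genes are named by rule: the 5 widest, the 5 with the highest score, 4 of each phase with the largest fitted range, the 5 with the smallest, the 4 genes with the smallest adjusted p in promoter choice, and the 3 highest-scoring members of each list. FBgn0005630, vkg, CG31626 and CG15212 were named after their values were seen. Cp190 was removed from the cuticle list and Max from the core promoter list, since both had been placed there by their symbols in error. A gene that this rule names is not reported here.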

Additional observations from a re-analysis of the deposited data

How the results depend on the processing

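No paired analysis was possible because each window has 1 library and all carry the same replicate number. The planned motif shares and their 2 alternatives were not run for lack of sequence. The number of broad TSCs with time dependence lay between 712 of 775 tested (filterByExpr) and 1038 of 1115 (a maximum of at least 10 RPM) over all alternatives, and stayed within 1.5 times the main count in each. In the phase contrast the count of broad TSCs lower late was 376 under TMM and 419 with edgeR; the other alternatives stayed within 1.5 times, as did all counts higher late. With a score of at least 2000 for both TSCs, promoter choice changed in 74 of 114 pairs with 1 broad TSC, 43 of 56 with it leading and 31 of 58 with it second, fewer pairs being tested; limma on log2 ratios called 164 of 345, 89 of 123 and 75 of 222. Housekeeping broad TSCs numbered 194 under TMM, 17 with a 3-fold and 344 with a 10-fold limit. Median entropy was 4.26 bits under TMM, 4.16 bits for widths of at least 300 bp and 3.93 bits without the 4 shallowest libraries, where fewer windows lower the maximum. The share of reads at 17-18 h was 52.1% for widths of at least 150 bp and 15.1% for at least 300 bp. It was 22.1% without the 10 with the highest scores. The median level of broad TSCs was 10.8 RPM lower at 16-23 h than at 0-8 h (-10.8), but 6.27 higher under TMM, a setting added after seeing the data. For the promoters and pairs named in the text, 837 tests under alternatives stayed on their side of the threshold, 11 lost the call and 11 gained it, most of them in ribosomal and respiratory chain genes. In 1 further test the result was reversed.

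Depth limits weak members most: at 5-6 h 121 broad TSCs had 0 reads, and at 22-23 h 115.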
